A study of Mus musculus with 5 samples.

Results

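The S-phase replication module is a set of 33 genes whose products license, unwind, copy and repackage DNA. Its members were chosen by gene symbol, and all 33 were present among the 27998 genes of the deposited count matrices. They fall into 4 roles, with 10 genes for origin licensing and the replicative helicase, 11 for polymerases, the sliding clamp and its loader, 7 for chromatin copying, repair and the checkpoint, and 5 for nucleotide supply. Levels are UMIs (unique molecular identifiers, 1 per captured transcript) of a gene, or of the whole module, per 10000 UMIs of the cells compared. The tags come from the 3′ end of a transcript, so levels were not divided by gene length.

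The data are droplet single-cell RNA profiles of ileum, the distal small intestine, from C57BL/6 mice at 8 to 12 weeks of age. The mice had either a sham operation or small bowel resection, the surgical removal of a length of gut. There were 3 sham libraries and 2 resection libraries. No genotype other than the strain was given, and neither were the time after surgery, the length removed or which animals a library came from. The p-values below therefore measure only the spread between libraries, which may be technical.

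The intestinal lining is renewed from crypts, where stem cells and their transit-amplifying daughters divide before cells move up the villus and leave the cycle. Before S phase the MCM2-7 helicase is loaded on origins by ORC, CDC6 and CDT1, and geminin blocks reloading once copying has begun. E2F transcription factors switch on many genes of this programme as cells pass from G1 into S phase, and the mitotic genes follow later in the cycle.

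Because the module is a textbook E2F programme, promoters were searched for E2F sites and the clearest are shown first. A window of 300 bases, from 250 before to 50 after the annotated start, was available from RefSeq (GRCm38.p6) for 29 of the 33 members, with none for Mcm4, Gins2, Rfc2 and Gmnn. The exact motifs TTTCCCGC, TTTGGCGC, TTTCGCGC and TTTGCCGC were searched on both strands, and overlapping matches were counted separately. A match was found for 14 of the 29 members (48.3%), against 704 of 27025 genes (2.60%), for 15 of 46 further replication genes (32.6%) and for 1 of 36 G2/M genes (2.78%). TTTCGCGC was present in 8 members, TTTCCCGC and TTTGGCGC in 6 each, and TTTGCCGC in 0. A gene with several annotated starts counted once if any of its windows held a motif. The 150 bases before the start are printed for 6 members, 5′ to 3′ on the gene's strand, with motifs that lie whole in the stretch, on either strand, in capitals. They were chosen because a motif lies in this stretch, and they cover the helicase genes Mcm5 and Mcm6, the loading factor Cdc6, the polymerase alpha gene Pola1, the clamp loader gene Rfc3 and the remodeller gene Hells.
Mcm6 (chr1:128359706-128359855, minus strand): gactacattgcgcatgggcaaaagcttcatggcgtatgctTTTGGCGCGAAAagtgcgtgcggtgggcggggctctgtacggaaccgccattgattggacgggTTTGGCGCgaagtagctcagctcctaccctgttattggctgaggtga
Hells (chr19:38930840-38930989, plus strand): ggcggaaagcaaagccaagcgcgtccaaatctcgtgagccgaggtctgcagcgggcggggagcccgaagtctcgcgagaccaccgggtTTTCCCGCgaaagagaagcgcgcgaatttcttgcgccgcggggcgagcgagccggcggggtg
Mcm5 (chr8:75109359-75109508, plus strand): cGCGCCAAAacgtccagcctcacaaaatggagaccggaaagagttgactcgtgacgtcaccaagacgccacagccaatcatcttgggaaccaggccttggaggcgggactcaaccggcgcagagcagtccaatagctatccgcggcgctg
Cdc6 (chr11:98908001-98908150, plus strand): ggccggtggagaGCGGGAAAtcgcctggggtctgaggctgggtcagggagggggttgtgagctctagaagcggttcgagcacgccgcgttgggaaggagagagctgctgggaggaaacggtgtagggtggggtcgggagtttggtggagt
Rfc3 (chr5:151651209-151651358, minus strand): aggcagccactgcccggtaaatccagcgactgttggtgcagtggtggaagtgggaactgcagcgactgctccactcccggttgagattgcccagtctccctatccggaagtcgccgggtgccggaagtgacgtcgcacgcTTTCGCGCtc
Pola1 (chrX:93632156-93632305, minus strand): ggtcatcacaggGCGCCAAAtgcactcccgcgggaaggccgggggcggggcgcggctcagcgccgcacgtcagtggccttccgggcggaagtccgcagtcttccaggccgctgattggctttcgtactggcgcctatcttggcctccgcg
In Mcm6 the printed stretch holds 3 motifs, of which 2 overlap on opposite strands. Dut, Tyms, Tk1, Rrm1 and Rrm2, the 5 nucleotide supply genes, had none of the motifs in their windows. A match is a description of these letters, not a measured binding site.

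The 5 libraries held 1402 to 7233 cells and 11749028 to 41281731 UMIs as deposited, and 18235 of 19404 cells were kept. Cells were clustered without the members and without 60 further replication genes. Clusters were named from marker genes, and stem-like and cycling-like cells together are called crypt cells here. Sham 1, 2 and 3 gave 79, 246 and 421 crypt cells, and resection 1 and 2 gave 339 and 532. The cycling-like cluster was led by mitotic genes such as Ube2c, Birc5 and Top2a. The stem-like cluster had all 11 stem markers detected, but its 10 leading genes held 1 of them (Slc12a2) and 4 members (Hells, Ung, Mcm6 and Dut). The stem-like name therefore describes cells rich in both kinds of gene. Sham 1 and resection 1 stood apart from the other libraries. When genes were not scaled within each library, cluster composition overlapped by 32.1% to 42.2% between libraries of the same set and by 4.55% to 7.21% between the sets. The sets are not in the labels and each holds both surgery groups, so differences are also given inside them. The median mitochondrial share of crypt cells was 13.2% in sham 1 and 10.3% in resection 1, against 7.92%, 6.20% and 7.28% in sham 2, sham 3 and resection 2. Between any 2 libraries, 0.386% to 1.5% of the smaller library's barcodes were shared.

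The module was concentrated in crypt cells of every library. Its summed level was 15.7, 17.4 and 23.7 UMIs per 10000 in crypt cells of sham 1, 2 and 3, and 17.7 and 18.9 in resection 1 and 2. In enterocyte-like cells, the mature absorptive cells of the villus, it was 1.68, 1.71 and 1.61 in sham and 1.64 and 1.66 after resection. Crypt cells thus stood 9.35 to 14.7 times above enterocyte-like cells of the same library, with no overlap between the classes. Immature enterocyte-like cells lay just above the villus level, at 2.19, 2.17 and 2.37 in sham and 2.48 and 2.30 after resection, which is 1.27 to 1.52 times the enterocyte-like level.

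Secretory and immune cells took intermediate or lower places. Goblet-like cells, which make mucus, had 4.92, 2.84 and 9.06 UMIs per 10000 in sham and 4.14 and 4.13 after resection. Paneth-like cells, the antimicrobial cells at the crypt base, had the lowest levels, 0.502, 0.719 and 0.747 in sham and 0.410 and 1.29 after resection. T cell-like cells, the class outside the epithelium, had 3.37, 4.84 and 6.47 in sham and 8.90 and 4.43 after resection. In each of these classes the resection values overlapped or straddled the sham range. The order of classes, crypt above goblet-like above immature above mature enterocyte-like above Paneth-like, held in all 5 libraries.

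**Figure D1:**
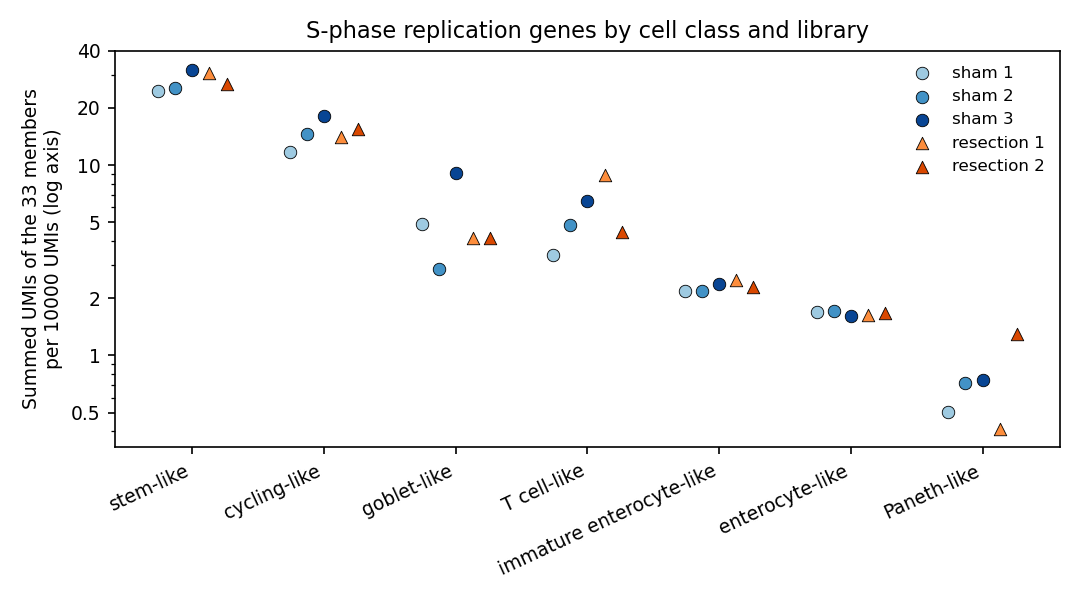
Summed UMIs of the 33 members per 10000 UMIs (vertical axis, log scale) for each cell class, 1 point per library, coloured by library and shaped by surgery group. Stem-like values of 24.6 to 31.6 and cycling-like values of 11.8 to 18.1 lie above the enterocyte-like values of 1.61 to 1.71. Within each class resection points overlap the sham points.

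Crypt cells were a minority of the epithelium but carried much of its module RNA. They were 6.31% to 15.4% of epithelial cells and held 36.9% to 67.8% of the module's epithelial UMIs. Enterocyte-like cells made up 29.7% to 53.0% of the cells and held 9.73% to 18.7% of these UMIs. With every cell thinned to 2300 UMIs, 89.8% to 94.8% of crypt cells and 30.4% to 34.7% of enterocyte-like cells had at least 1 member UMI. Without thinning the shares were 98.7% to 99.8% and 49.2% to 60.1%, at median depths of 5437 to 7314 and 3797 to 5453.5 UMIs per cell. Free RNA in the droplets was not measured, so its part in the enterocyte-like share was not tested.

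Within the crypt the module varied widely from cell to cell. A cell was called module-high when it had at least 20 member UMIs per 10000 after thinning, which is 5 of 2300. This is a range of a continuous score and not a cell type. The border held 3 to 38 crypt cells per library at exactly 5 UMIs, and 10 to 62 were 1 UMI short of it. Of crypt cells, 30.4% (exact 95% interval 20.5 to 41.8), 35.4% (29.4 to 41.7) and 53.0% (48.1 to 57.8) were module-high in sham 1, 2 and 3. The shares were 35.1% (30.02 to 40.4) and 40.04% (35.8 to 44.3) in resection 1 and 2, inside the sham range. Intervals cover counting error only. Crypt cells were 666 of the 733 module-high epithelial cells, goblet-like cells 37 and immature enterocyte-like cells 24. Among 7873 enterocyte-like cells 2 were module-high, and among 1024 Paneth-like cells 0, which allows a share of up to 0.293%.

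The 33 members differed in level but not in where they were found. Each was higher in crypt than in enterocyte-like cells in all 5 libraries, by a ratio of means between 2.63 for Slbp and 163 for Rrm2, with a median of 27.8. Clusters were made without the members but from cells of the same libraries, so this is a description. The 6 highest members in crypt cells, Dut, Lig1, Tyms, Pcna, Gmnn and Tk1, together held 33.2% of the module. Dut and Lig1 were the members above 1 UMI per 10000 as a mean over the 5 libraries.

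Licensing and helicase genes summed to 3.95, 4.002 and 5.71 UMIs per 10000 in crypt cells of sham 1, 2 and 3, and to 4.31 and 4.67 in resection 1 and 2. The resection values lay inside the sham range. Geminin (Gmnn), the inhibitor of CDT1, was their highest member in each library but sham 1, at 0.627, 1.01 and 1.26 in sham and 0.740 and 1.03 after resection. Of the 6 helicase subunits, Mcm6 had 0.778, 0.482 and 0.804 in sham and 0.736 and 0.683 after resection, and Mcm7 had 0.570, 0.564 and 0.762 in sham and 0.733 and 0.661 after resection. Mcm5 was highest in sham 1, with 0.740, 0.425 and 0.634 in sham and 0.372 and 0.494 after resection. The loading factors were scarcer: Cdt1 had 0.209 to 0.408 and Cdc6 0.0824 to 0.1303, the lowest of all members in each library but sham 1. Gins2, a subunit of the GINS complex that activates the helicase, ran from 0.0759 in sham 1, a sum of 4 UMIs, to 0.413 in sham 3.

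Polymerase, clamp and loader genes formed the largest share of the module, with sums of 5.73, 5.83 and 7.64 in sham and 5.89 and 6.38 after resection. Lig1, the ligase that joins Okazaki fragments, had 1.03, 0.875 and 1.252 in sham and 1.23 and 1.30 after resection. Pcna, the sliding clamp, had 0.778, 0.761 and 1.45 in sham and 0.824 and 0.856 after resection, so sham 3 stood above the other 4 libraries. Prim1, the catalytic subunit of primase, had 0.228, 0.381 and 0.428 in sham and 0.200 and 0.343 after resection. The clamp loader genes Rfc2, Rfc3, Rfc4 and Rfc5 and the flap endonuclease gene Fen1 overlapped between the groups in the same way. Pold1, the catalytic subunit of polymerase delta, was highest in sham 1 at 0.608 and lowest in sham 3 at 0.300.

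Chromatin, repair and checkpoint genes summed to 3.32, 2.87 and 4.45 in sham and 3.99 and 3.16 after resection. Hells, a chromatin remodeller, had 0.778, 0.742 and 0.949 in sham and 0.820 and 0.631 after resection. Slbp, which binds the stem-loop of histone mRNAs, was the highest of this role as a mean over libraries and also the member with the highest level in enterocyte-like cells. It had a UMI in 34.1% to 51.8% of crypt cells and in 12.6% to 19.7% of enterocyte-like cells, at the median depths given above. Clspn, which carries the checkpoint signal from ATR to CHK1, had 0.171, 0.133 and 0.337 in sham and 0.357 and 0.255 after resection.

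Nucleotide supply genes summed to 2.73, 4.68 and 5.92 in sham and 3.52 and 4.68 after resection. Dut, which keeps uracil out of DNA by breaking down dUTP, was the highest member of the module as a mean over libraries, though below Rfc2 and Lig1 in sham 1 and below Lig1 in resection 1. It had 0.778, 1.52 and 1.99 in sham and 0.907 and 1.44 after resection. Tyms, thymidylate synthase, had 0.721, 0.926 and 1.40 in sham and 0.696 and 1.05 after resection, and Tk1, thymidine kinase, had 0.399, 1.29 and 1.12 in sham and 0.649 and 1.17 after resection. For Dut and Tk1, as for the sum of the role, sham 1 and resection 1 were the lowest libraries. Rrm2, the regulated subunit of ribonucleotide reductase, had 0.361, 0.381 and 0.660 in sham and 0.459 and 0.365 after resection.

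**Figure D2:**
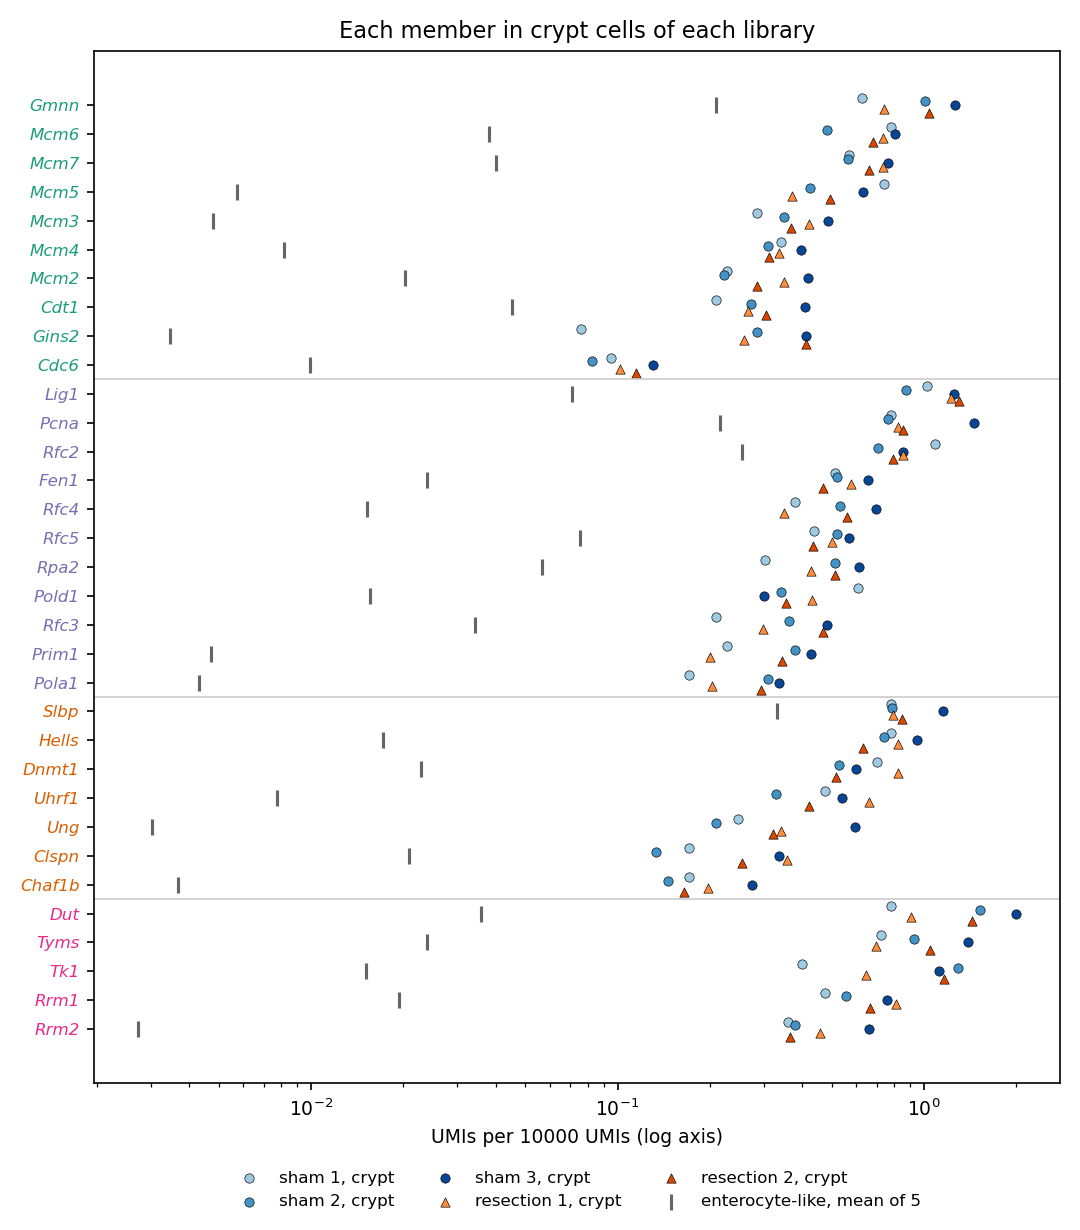
UMIs per 10000 UMIs (horizontal axis, log scale) of each of the 33 members in crypt cells, 1 marker per library, with a vertical tick for the mean of the 5 libraries in enterocyte-like cells and names coloured by role. Every crypt marker lies to the right of its tick, closest for Slbp and Rfc2, and sham circles and resection triangles intermix.

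Inside the crypt the module was higher in stem-like than in cycling-like cells. It was 24.6, 25.5 and 31.6 UMIs per 10000 in stem-like cells of sham 1, 2 and 3 and 30.5 and 26.9 in resection 1 and 2, from 25, 81, 202, 94 and 211 cells. Cycling-like cells of the same libraries had 11.8, 14.5 and 18.1, then 14.0 and 15.4. The ratio within a library was 1.74 to 2.17, with a median of 1.75, and the median was 2.68 when the replication genes were kept for clustering. G2/M genes went the other way, with 17.9 to 21.3 UMIs per 10000 in stem-like and 60.8 to 81.4 in cycling-like cells of sham, and 15.1 to 20.3 and 68.5 to 70.2 after resection. These differences are descriptions, since the classes were drawn from the same cells. The direction of the G2/M genes was built in, because the 15 markers that name the cycling-like cluster are all on that list.

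The members split by role along this division. Of the 33, 27 were higher in stem-like cells in all 5 libraries and 0 were higher in cycling-like cells in all 5. All 10 licensing and helicase genes and all 7 chromatin, repair and checkpoint genes were among the 27, with median ratios of 3.11 and 2.52. Of the polymerase, clamp and loader genes 9 of 11 were, with a median ratio of 1.65, but of the nucleotide supply genes only Dut was, with a median ratio of 1.08. Ung, the uracil glycosylase of base excision repair, had the highest ratio, 10.5. It had 0.680, 0.704 and 1.26 UMIs per 10000 in stem-like cells of sham and 1.10 and 0.837 after resection. In cycling-like cells it had 0.0548, 0.0343 and 0.126 in sham and 0.122 and 0.0982 after resection, and the sham 1 and sham 2 values there rest on 2 and 4 UMIs. The loading factors Cdc6 and Cdt1 followed, both at 5.36, then Hells at 3.68 and Mcm2 at 3.65. At the other end stood Tk1 at 0.750, Tyms at 0.922 and Rfc5 at 0.982, none of which was lower in stem-like cells in all 5 libraries.

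**Figure D3:**
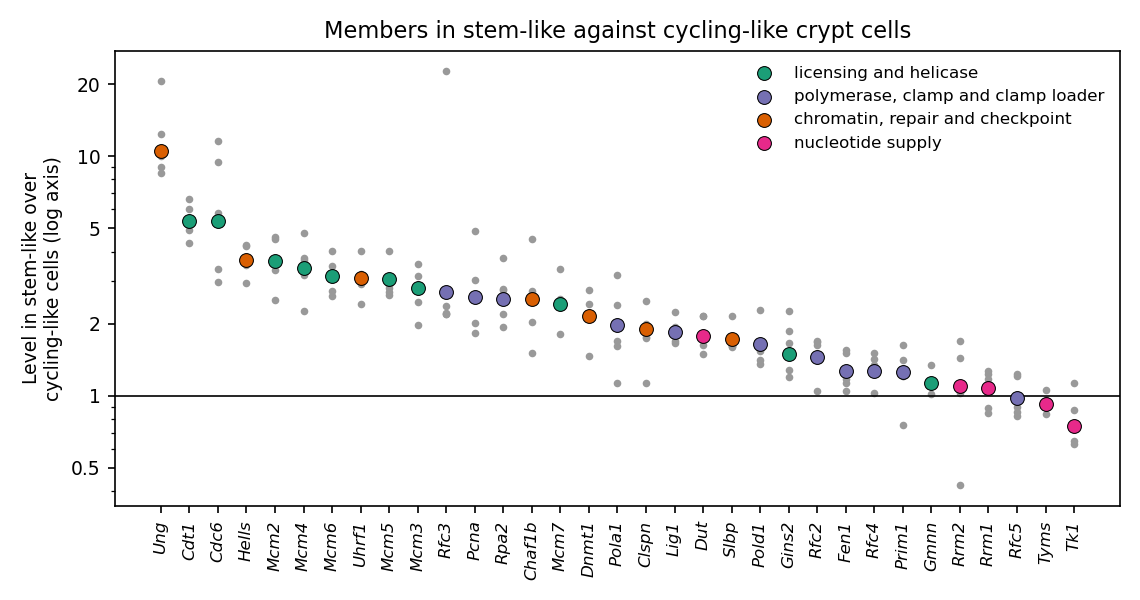
Ratio of the level in stem-like to that in cycling-like cells (vertical axis, log scale) for each member, ordered by falling ratio. Large points are ratios of the means over the 5 libraries, coloured by role, and small grey points are single libraries. Licensing and chromatin genes lie above the line of equal level in every library, up to 10.5 in the mean for Ung. Nucleotide supply genes other than Dut lie around it.

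The members were also compared within crypt cells without using the border between the classes. Spearman correlations were computed over the crypt cells of each library. They describe 79 to 532 cells that share a library and its depth, and they carry no test. Crypt cells join the stem-like and cycling-like classes, so the correlations also carry the difference between these classes given above. How much of the correlations it makes up was not tested. Each member correlated above 0 with the sum of the other 32 in every library, from a median of 0.0551 for Rfc5 to 0.479 for Lig1. Summed, the module correlated with the 60 further replication genes at 0.70 to 0.78, and at 0.49 to 0.58 after thinning to equal depth. With the 40 G2/M genes it correlated at -0.41 to -0.24, and at -0.40 to -0.20 after thinning. Module level and depth of a cell correlated at -0.48 to -0.09. By member, 19 correlated below 0 with the G2/M genes in every library, among them 8 of 10 licensing and helicase genes, 6 of 7 chromatin, repair and checkpoint genes, 4 of 11 polymerase, clamp and loader genes and 1 of 5 nucleotide supply genes. Ung had the lowest median, -0.38. Rrm1 and Rrm2, the subunits of ribonucleotide reductase, were the 2 members above 0 in every library. Tk1 had the highest median, 0.17, but ran from -0.14 to 0.33.

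A part of the crypt cells counted as high in both the module and the mitotic genes. In sham 1, 2 and 3, 16.5%, 23.6% and 33.3% of crypt cells were high in both the module and the G2/M genes, as were 25.1% and 22.9% in the resection libraries. Cells high in the module alone were 13.9%, 11.8% and 19.7% in sham and 10.0% and 17.1% after resection. Cells high in the G2/M genes alone were 62.0%, 55.7% and 36.6% in sham and 57.5% and 45.9% after resection. The same border of 20 UMIs per 10000 after thinning was used for both lists, although the G2/M list has the higher summed level. Most crypt cells therefore passed it for the G2/M genes, and the share high in both does not show that the lists rise together.

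Among 4889 genes outside the list, the genes most like the module over crypt cells were ranked by the median over the 5 libraries of their Spearman correlation with it. The 10 highest were Stmn1 at 0.443, Rps28, Rpl37, Rfc1, Npm1, Dek, Atad2, Nasp, Rpl38 and Hmgn1 at 0.338. Among them are the replication genes Rfc1 (the large subunit of the clamp loader), Atad2 and Nasp (a histone chaperone), ribosomal protein genes and abundant chromatin or nucleolar genes such as Dek, Hmgn1 and Npm1. None is a G2/M gene of the list. Of the 10 genes with the lowest correlations 6 were G2/M genes of the list, led by Cdc20, an activator of the anaphase-promoting complex, at -0.492, Tubb4b at -0.428 and the centromere histone Cenpa at -0.427. The other 4 were Krt8, a keratin, at -0.389, Arl6ip1 at -0.376, 2200002D01Rik at -0.365 and Knstrn at -0.345.

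Between surgery groups the module level did not separate in any class. Sham crypt cells averaged 18.9 ± 4.22 UMIs per 10000 (SD, n = 3) and resection crypt cells 18.3 ± 0.823 (SD, n = 2), which is a log2 ratio of -0.05. The ratio was 0.17 inside the set of sham 1 and resection 1 and -0.12 inside the other set, and without sham 3 it was 0.14. Resection lay inside the sham range in stem-like and cycling-like cells as well, with log2 ratios of 0.07 and -0.01. In immature and mature enterocyte-like cells the ratios were 0.09 and -0.02, with overlapping libraries. No p is given for these sums, since the members were proposed with results of these data in view. Crypt cells of sham 3, with the highest module level, also had the lowest summed level of 18 enterocyte markers, 57.3 per 10000. The other sham libraries had 97.7 and 92.5, and the resection libraries 76.5 and 118. The 10 Paneth markers were likewise lowest there, 21.1 against 26.3 to 66.8. None of these markers was at 0, and their part in the module level was not tested. Of 7 stromal or endothelial markers 6 were at 0 in crypt cells, and 9 T cell markers summed to 0.142 to 1.29.

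Over all epithelial cells the module was highest in sham 3, the library with the highest share of crypt cells, and lowest in sham 1, the one with the lowest share. It was 2.09, 3.06 and 5.77 UMIs per 10000 in sham and 3.50 and 3.81 after resection, a log2 ratio of 0.00. This ratio depended on the libraries. It was 0.74 inside the set of sham 1 and resection 1, -0.22 inside the other set and 0.50 without sham 3. These ratios pool all UMIs, so deep cells weigh more. With every cell thinned to equal depth, the module was at 2.92, 3.06 and 5.67 in sham and 3.42 and 3.56 after resection. Sham 1 was still lowest but closer to sham 2 and resection 1. Paneth-like cells, with the lowest module level, held 4657734 of 10743416 epithelial UMIs in sham 1. They held 2992106 of 20686019 in sham 2 and 3998223 of 25632772 in resection 1. Their part in the low level of sham 1 was not tested. Crypt cells made up 6.31% (exact 95% interval 5.03 to 7.80) of the epithelium in sham 1, 6.68% (5.90 to 7.54) in sham 2 and 15.4% (14.0 to 16.8) in sham 3. They were 9.30% (8.38 to 10.3) and 8.23% (7.57 to 8.93) in resection 1 and 2, between the sham libraries. Sham libraries averaged 9.45% ± 5.12 (SD, n = 3) and resection libraries 8.77% ± 0.759 (SD, n = 2), and the difference was -0.683 points (exact two-sided permutation p = 1, where 0.1 is the smallest possible). Sham 3 decides the sign: without it the difference was 2.27 points, and inside the sets it was 2.99 and -2.79 points. The sum over all epithelial cells alone cannot separate the share of crypt cells, the module level in them and the depth of other classes. The share and the level in crypt cells are given separately above.

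Gene by gene, edgeR's quasi-likelihood test on counts summed per library called no member in crypt cells. Of 9855 genes tested 0 were called at an adjusted p below 0.05 (0%), DESeq2 also called 0, and 124 (1.26%) had an unadjusted edgeR p below 0.05, none of them a member. All 33 members passed the filter on low counts, 9 with a higher and 24 with a lower estimate after resection. Their median log2 fold change was -0.18, against -0.01 over all genes tested, and they ran from -0.45 to 0.33. The lowest unadjusted p was 0.187, and every edgeR adjusted p was 1.0. This tilt rests on sham 3: without it 22 members were higher and 11 lower, with a median of 0.11. Leaving out resection 1 also turned the median, to 0.01.

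The 6 members with the lowest p and the 6 with the highest level, 11 genes in all, show how wide the errors were. Estimates below 0 were -0.45 ± 0.32 (SE) for Mcm5, -0.44 ± 0.41 for Prim1, -0.25 ± 0.28 for Hells, -0.30 ± 0.34 for Rrm2 and -0.32 ± 0.38 for Pcna, on the log2 scale. The same held for Dut at -0.35 ± 0.48, Tyms at -0.28 ± 0.41, Gmnn at -0.19 ± 0.41 and Tk1 at -0.13 ± 0.53. Lig1 at 0.22 ± 0.31 and Clspn at 0.33 ± 0.39 were above 0. Apart from Mcm5 and Prim1, each estimate was smaller than its standard error, and no estimate reached 1.5 times its own.

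**Figure D4:**
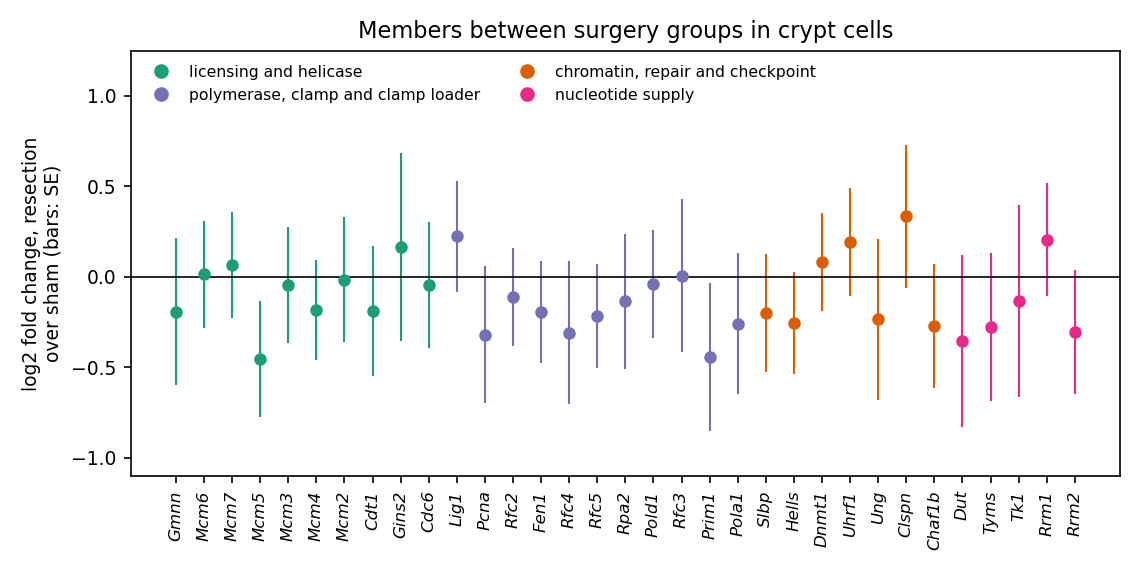
Log2 fold change of resection over sham in crypt cells (vertical axis) for the 33 members by role. Bars are 1 standard error, worked back from the F statistic of the edgeR test. Estimates run from -0.45 to 0.33 and 31 of the 33 bars cross 0.

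The fits in single classes gave no called member either. In stem-like cells edgeR called 0 of 6643 genes (0%), 76 (1.14%) were below 0.05 unadjusted and DESeq2 called 0. Of the 33 members 16 were higher and 17 lower, with a median of 0.00. In cycling-like cells 0 of 9332 genes were called (0%), 134 (1.44%) were below 0.05 unadjusted and DESeq2 called 0. There 13 members were higher and 20 lower, with a median of -0.08. In immature enterocyte-like cells edgeR called 0 of 10428 genes (0%) and DESeq2 called 9, none of them a member, with 204 (1.96%) below 0.05 unadjusted. Of the 32 members tested 22 were higher and 10 lower, with a median of 0.14. Over all epithelial cells edgeR called 0 of 11721 genes (0%), 337 (2.88%) were below 0.05 unadjusted and DESeq2 called 34, none a member. There 10 members were higher and 23 lower with a median of -0.14, but 32 were higher and 1 lower without sham 3.

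Genes next to the module in the cycle showed the same lack of separation in crypt cells. Of the 60 further replication genes 59 were tested, 19 higher and 40 lower, with a median log2 fold change of -0.09 and 0 called by edgeR. The 3 with the lowest p were Exo1, an exonuclease of mismatch repair, at -0.88 ± 0.38 (SE), Rpa3, a subunit of the single-strand binding protein, at -0.84 ± 0.45, and Tcf19 at -0.54 ± 0.29. Exo1, with an unadjusted p of 0.0465 and an edgeR adjusted p of 1.0, was the 1 gene of this list below 0.05. Of the 40 G2/M genes 14 were higher and 26 lower, with a median of -0.05 and 0 called. Aurka, Ckap2 and Plk1 had their lowest p, with estimates of -0.35 ± 0.31, 0.32 ± 0.28 and 0.26 ± 0.29.

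Counting members whose libraries did not overlap between the groups gave a similar picture. In crypt cells 0 of 33 members had both resection libraries above every sham library and 0 had both below, where 6.03% and 4.59% of all genes tested did, on values scaled by TMM, which corrects library sizes for a few very abundant genes. Scaled by plain totals, the counts were again 0 and 0, where 5.62% and 3.57% of genes were. In stem-like cells 1 member was above (Mcm7, where 6.7% of genes were) and 0 below (5%), and by plain totals Lig1 was above (6.59%) and 0 below (4.29%). In cycling-like cells 1 was above (Cdc6, 6.28%) and 1 below (Rrm2, 4.89%), while by plain totals Lig1 was above (5.84%) and 0 below (4.02%). Over all epithelial cells 0 were above (8.02%) and 1 below (Rfc2, 6.31%), and by plain totals 0 were above (18.3%) and 0 below (1.93%). In immature enterocyte-like cells 5 of 32 members were above, Ung, Mcm2, Gins2, Fen1 and Hells, where 6.72% of genes were, and 0 below (4.72%). Scaled by plain totals the count was again 5, but with Rfc5, Mcm5 and Cdt1 in place of Ung, Fen1 and Hells, where 5.53% of genes were above, and 0 were below (3.31%). These 5 names were seen in the values and were not chosen by rule.

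More members were split by library set than by surgery group, as was so for genes in general. In crypt cells 17 of 33 members had sham 1 and resection 1 both below the other 3 libraries on TMM-scaled values, where 27.5% of all genes did, and 0 had both above, where 24.8% did. On plain totals the counts were 11 below (16.4% of genes) and 3 above (41.6%), the latter being Rfc2, Pold1 and Dnmt1. Dut, Tk1, Gmnn, Tyms, Prim1, Pola1, Rpa2, Rfc3, Rfc4, Gins2 and Cdt1 were below on both scales. The same direction was seen in cycling-like cells, with 16 below and 0 above on TMM-scaled values (26.5% and 24.8% of genes), and with 12 and 5 on plain totals (16.7% and 39.8%). In immature enterocyte-like cells the counts on TMM-scaled values were 10 below and 3 above (27.4% and 26.7%), but on plain totals 5 below and 9 above (15.1% and 49.3%), so the direction depended on the scaling there. The sets were seen in the data and are not replicates of a condition, so these counts carry no test. The higher mitochondrial share of sham 1 and resection 1, given above, moves with them, and its part was not tested.

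One member stood out in enterocyte-like cells, where module levels were low. Mcm2, a subunit of the helicase, had 1, 4 and 6 UMIs in enterocyte-like cells of sham 1, 2 and 3. Resection 1 had 64 and resection 2 had 26. That is 0.00478, 0.00626 and 0.00803 UMIs per 10000 in sham and 0.0623 and 0.0198 after resection, so both resection libraries were above every sham library, and resection 1 was well above resection 2. The edgeR log2 fold change was 2.42 ± 0.60 (SE), with an unadjusted p of 0.00378 and an edgeR adjusted p of 0.389. Mcm2 passed the filter on low counts only through the resection libraries, where it is high, so this p is not independent support. It was not called. In this class edgeR called 0 of 9713 genes (0%), 617 (6.35%) were below 0.05 unadjusted and DESeq2 called 100, with Mcm2 at an adjusted DESeq2 p of 0.181. Both resection libraries were above every sham library for 11% of genes and below for 9.26% on TMM-scaled values. Of the 23 members tested 2 were above, Mcm2 and the loading factor Cdt1, and 0 below, with 9 higher and 14 lower estimates and a median log2 fold change of -0.08. By plain totals Mcm6 was also above (10% of genes) and Rfc4 below (7.97%). Sham 1 and resection 1 were both below the others for 8 of the 23 and above for 3 (23.1% and 20.5% of genes), and by plain totals for 5 and 5 (13.3% and 38.9%). Mcm2 was chosen after its values were seen.

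The call on Mcm2 depended on the setting. Without the filter on low counts its edgeR adjusted p was 0.00913, and the replicate block gave 0.0487, so both settings called it. In this class these settings called 186 of 15191 and 317 of 9713 genes, and the block takes sham 3 out of the contrast. Over the alternatives of this fit the adjusted p ran from 0.00913 to 1.0. Without resection 1 the log2 fold change was 1.56 with an edgeR adjusted p of 1.0, and without resection 2 it was 2.96. Cells with an Mcm2 UMI were 58 of 1930 in resection 1 (3.01%, exact 95% interval 2.29 to 3.87) and 26 of 3004 in resection 2 (0.866%, 0.566 to 1.27). In sham 1, 2 and 3 they were 1 of 372 (0.269%, 0.0068 to 1.49), 4 of 1487 (0.269%, 0.0733 to 0.687) and 6 of 1080 (0.556%, 0.204 to 1.21). The intervals of resection 2 and the sham libraries overlap.

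Among the other helicase subunits, Mcm6 had 0.0335, 0.0360 and 0.0268 UMIs per 10000 in sham and 0.0419 and 0.0526 after resection. Both resection libraries lay above the sham libraries on this scale but not on TMM-scaled values, and the edgeR log2 fold change was 0.52 ± 0.35 (SE) with an adjusted p of 0.946. Summed, the other 5 subunit genes had 0.0765, 0.0908 and 0.0991 UMIs per 10000 in sham and 0.0954 and 0.123 after resection, and resection 1 lay inside the sham range. Of the cells with an Mcm2 UMI, 3 of 58 in resection 1 and 2 of 26 in resection 2 had a UMI of another subunit. A UMI of any other member was found in 28 of the 58 and in 1044 of the 1872 remaining cells of resection 1, and in 17 of the 26 and 1461 of 2978 in resection 2. No enterocyte-like cell had more than 2 Mcm2 UMIs. In resection 1, 1184 of 1930 enterocyte-like cells lay in clusters 7 and 11, which hold 1297 cells over all libraries. Mcm2 was at 0.147 UMIs per 10000 in cluster 11, led by Apoa4, Lct and Fabp1, and at 0.00783 in cluster 7, led by Sgk1 and Pck1. In clusters 1 and 3, which hold enterocyte-like cells of every library, resection 1 had 0.0950 and 0.0629 and resection 2 had 0.0184 and 0.0286. Sham 1, 2 and 3 had 0, 0.00544 and 0.0136 in cluster 1 and 0, 0.00540 and 0.00581 in cluster 3. Each of these sham values rests on 0 or 1 UMI. In crypt cells, where the gene is used for replication, Mcm2 had 0.228, 0.222 and 0.419 in sham and 0.350 and 0.285 after resection, and the groups overlapped. Cdt1 in enterocyte-like cells had 0.0287, 0.0407 and 0.0241 in sham and 0.0808 and 0.0518 after resection, with an edgeR adjusted p of 0.669.

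**Figure D5:**
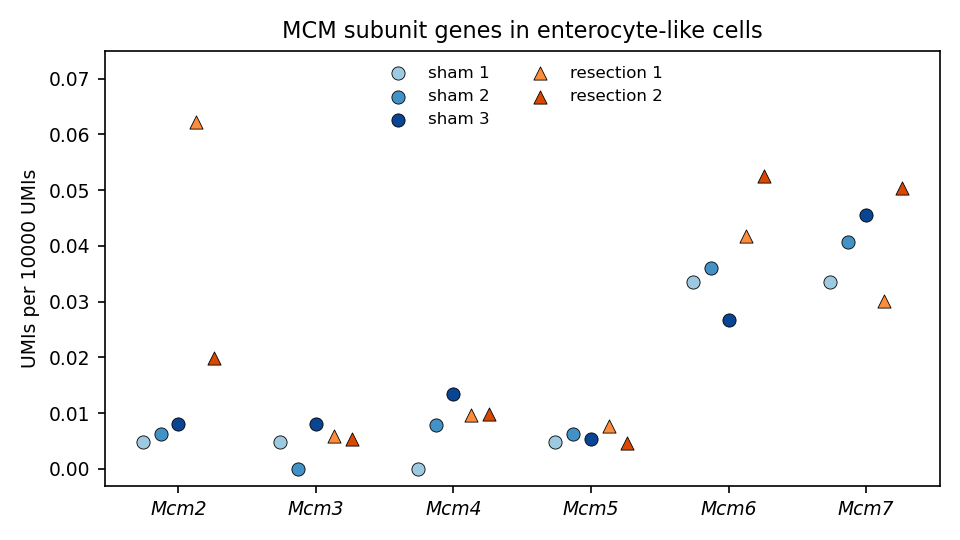
UMIs per 10000 UMIs (vertical axis) of the 6 MCM subunit genes in enterocyte-like cells, circles for the 3 sham libraries and triangles for the 2 resection libraries. Mcm2 stands at 0.0623 in resection 1 and 0.0198 in resection 2 against at most 0.00803 in sham, while Mcm6 is higher in both resection libraries by a smaller margin and Mcm3, Mcm4, Mcm5 and Mcm7 overlap between the groups.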

How the data were processed

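The deposited matrices hold raw UMI counts, whole numbers for each gene in each cell, made by the authors with Cell Ranger from 10x 3′ (v2 chemistry) libraries, per the labels, whose version entry carries a question mark. The submitters' processing notes name mm10 and GRCm38. How the authors chose cell barcodes is not given in the sources used here. The members and all gene lists were chosen with earlier results of these data known.

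Cells with at least 500 genes and at most 20% mitochondrial UMIs were kept. Doublets were removed as the cells with the highest simulated-doublet scores, in a share that grew with library size (720 cells, 3.80% of those passing). Cells were clustered (2000 variable genes, 30 principal components, 20 neighbours, Leiden resolution 1.0) without the members and 60 further replication genes, and named from marker lists. Joint clustering was planned without scaling inside libraries. It split the libraries into sets, so genes were scaled within each library instead, a choice made after seeing that split and not the module's values. Of 20 clusters 1 (176 cells) stayed unnamed.

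Counts were summed per library and class, with at least 20 cells required, and tested with edgeR 4.0.16 (TMM, quasi-likelihood, filter on low counts, Benjamini-Hochberg adjustment over all genes tested, threshold 0.05). The edgeR test gives no standard error, so SE is the size of the log2 fold change over the square root of the F statistic, an approximation. DESeq2 1.42.0 was an alternative. Python 3.11.15, scipy 1.17.1, leidenalg 0.10.2, limma 3.58.1 and R 4.3.3 were used, and the scripts were tested on simulated data. Total counts per library were 11749028 to 41281731, and values from few cells or few UMIs are the least precise. Thinning drew 2300 UMIs per cell without replacement.

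Named were all 33 members by role, log2 fold changes in crypt cells for the 6 members with the highest level and the 6 with the lowest p, the 3 genes with the lowest p of each other list, and the 10 genes most like the module among those detected in at least 10% of crypt cells of every library. Mcm2 in enterocyte-like cells and the genes with the lowest correlations were named outside this rule.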

Additional observations from a re-analysis of the deposited data

How the results depend on the processing

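With 3 and 2 libraries, differences smaller than the spread between sham libraries could not be resolved. In the main clustering the fewest cells in a fitted class were the 25 stem-like cells of sham 1. No member was called by edgeR or DESeq2 in the crypt classes, the immature enterocyte-like class or the epithelium as a whole under any alternative run. In enterocyte-like cells 1 member, Mcm2, was called without the low-count filter and 1, again Mcm2, with the replicate block, at log2 fold changes of 2.44 and 2.37. These settings called 186 of 15191 and 317 of 9713 genes in that class. Of 255 alternative values for 17 genes named in crypt cells, 238 kept their sign, 17 reversed and 0 were called.

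Genes called by edgeR, 0 in each class as reported, became 5 in crypt, 5 in stem-like, 27 in immature enterocyte-like, 186 in enterocyte-like and 17 in all epithelial cells together without the low-count filter. DESeq2 called 9 in immature enterocyte-like, 100 in enterocyte-like and 34 in all epithelial cells. With the library set as a term, 4, 5, 17 and 3 were called in stem-like, immature, mature enterocyte-like and all epithelial cells. Keeping replication genes for clustering gave 1 in stem-like cells, and not scaling genes within libraries gave 1 in enterocyte-like cells. Leaving out 1 library gave 0 to 1 in stem-like cells, 0 to 1 in immature enterocyte-like cells and 0 to 2 in enterocyte-like cells. With the replicate block, which takes sham 3 out of the contrast, 82 genes were called in crypt, 45 in stem-like, 45 in cycling-like, 171 in immature, 317 in enterocyte-like and 241 in all epithelial cells. The labels share only numbers (2 pairs). Deviations of same-numbered libraries correlated at 0.56 and 0.41 in crypt cells, and those of sham 3 and resection 2, which share no number, at 0.43. Deviations of the 2 resection libraries from their mean mirror each other. The correlations are therefore not independent and cannot decide whether the numbers mark pairs.

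The log2 ratio of the module was -0.10 in stem-like cells with no doublets removed. In immature enterocyte-like cells it was 0.0022 with replication genes kept for clustering, -0.0035 with genes not scaled and -0.0084 at Leiden resolution 0.5. In enterocyte-like cells it was -0.060 with replication genes kept and -0.11 with genes not scaled. The median ratio of stem-like to cycling-like cells, 1.75 as reported, was 2.68 with replication genes kept and 2.04 with no doublets removed. The crypt share differed by -2.25 to 2.27 points when 1 library was left out. The cause of these shifts was not tested.

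In crypt cells, log2 fold changes turned positive with the replicate block for Dut (0.022), Tyms (0.083), Pcna (0.13), Gmnn (0.10), Tk1 (0.093) and Rrm2 (0.079), and with the library set as a term for Tk1 (0.18). Leaving out 1 library gave -0.91 to 0.048 for Dut, -0.78 to 0.10 for Tyms, -0.52 to 0.12 for Pcna, -0.63 to 0.15 for Gmnn, -0.81 to 0.33 for Tk1 and -0.49 to 0.10 for Rrm2. Not run were the stem-like fit with no doublets removed or genes not scaled, which left sham 1 under 20 cells, and fits of stem-like and cycling-like cells at resolution 0.5, where they formed 1 cluster.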
